A study of Caenorhabditis elegans with 6 samples.

Results

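The npr genes of Caenorhabditis elegans encode neuropeptide receptors, and 44 of them could be read on arrays of messenger RNA from the A-class motor neurons. They were taken as the genes whose symbol, as the single gene of a probe set, is npr followed by a number, and they stand among 17118 genes of the array. The 44 genes had 47 probe sets, and each gene is represented by the probe set that is brightest over all 6 arrays. The larvae were at the L2 stage and had been raised at 25 °C on the bacterial strain Na22, in 2 groups of 3 arrays each: the wild-type strain N2, and mutants of genotype unc-37(e262). The UNC-37 protein is a Groucho-type corepressor, a partner of the homeodomain protein UNC-4, and the arrays were compared to find transcripts that change when it is mutant. Animals of both groups made a FLAG-tagged PAB-1, which holds the poly(A) tails of transcripts, under the unc-4 promoter, so that the RNA of the tagged cells could be pulled down. That promoter is known to be active in the DA and VA motor neurons and in a few other neurons, and a pull-down also carries RNA of cells without the tag.

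Neuropeptide receptors of the npr kind are G protein-coupled receptors with a chain that crosses the membrane repeatedly. A peptide released from dense core vesicles binds from outside, and the receptor turns on a G protein inside the cell, which changes excitability or transmitter release. Several npr genes have known peptides: npr-1, npr-4 and npr-5 respond to FLP-18, npr-1 also to FLP-21, npr-6 to FLP-1, npr-3 to FLP-15, npr-22 to FLP-7 and npr-11 to NLP-1. In motor circuits such receptors tune locomotion, and npr-1 is best known for its control of aggregation and of responses to oxygen.

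The medians of the 6 arrays lay between 50.1 and 52.4 on the linear scale of the deposited intensities, all values below are log2 of those intensities, and precision is set by how few arrays there are. unc-4, whose promoter drove the tag, was itself higher in unc-37 arrays, with a log2 change of 2.74 ± 0.31 SE, unc-37 was higher by 0.50 ± 0.09 (adjusted p = 0.0159, and no call without wild-type replicate 1 or 2, at 0.0509 and 0.0711), and pab-1 stood at 0.17 ± 0.09 without a call (0.365). Of 19 pan-neuronal genes, 12 were called higher by limma (adjusted p below 0.05) and none lower. In this list 3 genes lay below 0, and 1 of them, unc-31 at -0.17, was lower without overlap of the arrays. The median log2 change of the 19 was 0.67. Their mean level was 7.60 to 7.76 over the wild-type arrays and 8.22 to 8.29 over the unc-37 arrays. All 7 cholinergic and A-class neuron genes rose, with mean levels of 7.11 to 7.60 in wild type and 8.57 to 8.65 in unc-37. Of 7 hypodermis genes, 2 were called lower and none higher (9.62 to 10.02 in wild type, 9.22 to 9.62 in unc-37). Without adjustment 3 of the 7 had a limma p below 0.05, and 1 of these 3 lay higher in unc-37, at 0.59. None of 8 body wall muscle genes (9.86 to 10.25 and 9.86 to 10.18) and none of 6 intestine genes (9.33 to 9.53 and 8.92 to 9.39) was called by limma, with 1 of each at an unadjusted p below 0.05. Among markers of other neurons, 4 of 5 B-class, 1 of 5 GABA, 2 of 6 touch receptor and 1 of 6 interneuron genes were called higher and none lower. Their unadjusted p was below 0.05 in 4, 2, 3 and 1 genes, and their median changes were 0.95, 0.12, -0.13 and -0.06. In these lists 0, 1, 4 and 4 genes lay below 0, with 1 GABA and 2 touch receptor genes lower without overlap of the arrays. None of 9 ciliated sensory, 5 pharyngeal muscle, 5 germ line and 3 glia genes was called by limma, with 1, 0, 0 and 2 at an unadjusted p below 0.05. Markers of muscle, hypodermis and intestine were thus bright in RNA labelled as A-class motor neurons, and the deposited values hold no detection call by which any marker could be named absent. In such bulk samples, fewer cells of a type and less RNA per cell cannot be told apart. The part of these shifts in the results below was not tested, except by the scaling to pan-neuronal genes given beside them.

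In unc-37 arrays, 3 of the 44 npr genes rose and none fell: npr-2 by 1.65-fold, npr-12 by 1.58-fold and npr-29 by 1.56-fold. A call here is an adjusted p under 0.05 in limma (Benjamini-Hochberg, over all 22548 probe sets). Without adjustment, 11 of the 44 had a limma p under 0.05, as did 3661 of all 17118 genes. Of these 11, npr-17 was the only one below 0. The 3 calls are 6.82% of the members, and over all 17118 genes 6.75% were called, so the count by itself is near the background. Higher calls made up 3.94% of all genes and lower calls 2.81%. The median log2 change of the 44 was 0.03, beside -0.01 over all genes, and the members ran from -0.30 to 0.72. For any 1 gene, an exact permutation test of 3 arrays against 3 can reach no p under 0.1. Each call therefore rests on the model that limma fits, in which a gene's own spread is combined with that of all probe sets.

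npr-2 (sequence name T05A1.1), which is placed with the receptors related to those of mammalian neuropeptide Y, measured 5.85, 5.71 and 5.81 in wild-type replicates 1 to 3. In unc-37 it measured 6.49, 6.52 and 6.52. The 3 mutant arrays lie close together, and the lowest of them is far above the highest wild-type array. The log2 change was 0.72 ± 0.09 SE, with a 95% interval of 0.53 to 0.92 and an adjusted p of 0.00298. Its neighbour on the chromosome in RefSeq's gene order, the collagen gene col-122, fell by 0.65 (adjusted p = 0.0112), and its other neighbour trcs-1 was at -0.02 and not called.

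npr-12 (T22D1.12), an npr receptor for which no ligand is named here, measured 6.25, 6.13 and 6.24 in wild type and 6.85, 6.93 and 6.83 in unc-37. Again the groups stand apart with no overlap, and the spread was small in each (SD 0.07 and 0.06, n = 3). The log2 change was 0.66 ± 0.09, with an interval of 0.46 to 0.86 and an adjusted p of 0.00441. A neighbouring gene, the kinase gene jnk-1, had a like change without a call, at 0.64 (adjusted p = 0.0657), while cest-6 on the other side was at 0.01.

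npr-29 (ZC84.4) measured 6.98, 6.73 and 6.78 in wild type and 7.52, 7.38 and 7.51 in unc-37. The highest wild-type array, replicate 1, is below every mutant array. Its log2 change was 0.64 ± 0.10, with an interval of 0.41 to 0.87 and an adjusted p of 0.00925. It was read by a probe set of the kind _s_at, which can bind more than 1 transcript, as were npr-15, npr-34 and npr-37. Its neighbours ZC84.1 and rnr-1 were at -0.01 and -0.13 and not called.

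All of npr-2, npr-12 and npr-29 stayed called when any single array was left out, the highest adjusted p being 0.0188, 0.0253 and 0.0476. With each array scaled to its mean over the 19 pan-neuronal genes, all log2 changes moved down alike by construction, the median of all genes to -0.60, and npr-2 stood at 0.13, npr-12 at 0.07 and npr-29 at 0.05. None of the 3 was then called (adjusted p = 0.247, 0.511 and 0.638), which does not show that they moved exactly with the pan-neuronal mean. On that scale no npr gene was called higher and 35 of the 44 were called lower, against 3 and none on the scale of the deposited values. Over all 17118 genes, 190 were called higher and 14810 lower with the same scaling, so most of the array was called lower there.

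**Figure D1:**
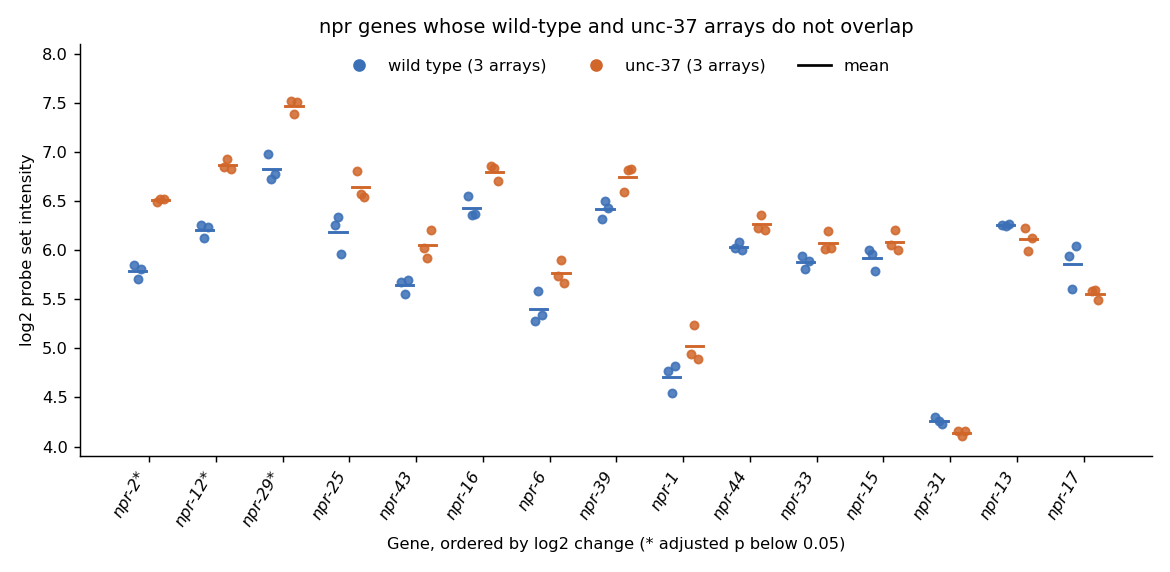
Log2 probe set intensity of the 15 npr genes whose wild-type (blue) and unc-37 (orange) arrays do not overlap, ordered by log2 change, with a point for each array, a bar at the mean of 3 arrays and an asterisk for an adjusted p below 0.05. The 3 called genes npr-2, npr-12 and npr-29 show the widest gaps, and npr-31, npr-13 and npr-17 are lower in unc-37.

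Beyond the 3 called genes, 12 npr genes had arrays that do not overlap between the groups without passing the test, 9 of them higher in unc-37 and 3 lower. In all, 15 of 44 (34.1%) had arrays that do not overlap, against 26.4% of all genes. By direction, 27.3% of the npr genes lay higher without overlap, against 12.6% of all genes, and 6.82% lay lower, against 13.7%. No test was made of these shares.

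npr-16 (F56B6.5) came nearest to a call among genes at their brightest probe set, measuring 6.55, 6.36 and 6.37 in wild type and 6.85, 6.84 and 6.71 in unc-37. Its log2 change there was 0.37 ± 0.10 (adjusted p = 0.0578). A dimmer probe set of npr-16 measured 5.36, 5.17 and 5.05 in wild type and 5.90, 5.77 and 5.86 in unc-37. On that probe set the gene was called higher, with a log2 change of 0.66 ± 0.10 (adjusted p = 0.00985). Both probe sets place all mutant arrays above all wild-type arrays, and the mean of the pair was called as well, at 0.51 (adjusted p = 0.0147). The call on the dimmer set ended without unc-37 replicate 1 (adjusted p = 0.0502) and with the scaling to pan-neuronal genes, where its change was 0.07. In RefSeq, npr-16 overlaps the gene F56B6.6, which was called in the other direction, at -0.73 (adjusted p = 0.00432). In all, 10 of the 44 npr genes overlap another protein-coding gene there.

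npr-43 (F56A12.2) measured 5.68, 5.55 and 5.70 in wild type and 6.02, 5.92 and 6.21 in unc-37, a log2 change of 0.40 ± 0.10 (adjusted p = 0.0595). npr-25 (T02E9.1) measured 6.26, 6.34 and 5.96 in wild type and 6.81, 6.57 and 6.54 in unc-37, a log2 change of 0.45 ± 0.13 (0.0786). Both are just outside the threshold, and in npr-25 the wild-type arrays spread more widely (SD 0.20) than those of the called genes. With limma's array weights, npr-16, npr-25 and npr-43 were called (adjusted p = 0.0332, 0.0356 and 0.0323), and npr-16 and npr-43 were called with each array centred on its median (0.0476 and 0.0440). All 3 turned below 0 with the scaling to pan-neuronal genes, at -0.21, -0.14 and -0.18.

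npr-39 (F57A8.4) measured 6.32, 6.50 and 6.43 in wild type and 6.59, 6.82 and 6.83 in unc-37, a log2 change of 0.33 ± 0.10 (adjusted p = 0.110). npr-44 (H23L24.4) measured 6.02, 6.08 and 6.01 in wild type and 6.23, 6.36 and 6.21 in unc-37, a log2 change of 0.23 ± 0.09 (0.184). In neither does a mutant array reach down to the wild-type ones, but the gaps are small beside those of npr-2 and npr-12. npr-33 (F31B9.1) measured 5.94, 5.81 and 5.89 in wild type and 6.01, 6.20 and 6.02 in unc-37, a log2 change of 0.20 ± 0.09 (0.288). npr-15 (T27D1.3), known for a role in the animal's defence against bacteria, measured 5.997, 5.96 and 5.79 in wild type and 6.05, 6.20 and 6.002 in unc-37, a log2 change of 0.17 ± 0.10 (0.386). For npr-33 and npr-15 the 95% interval includes 0. With the scaling to pan-neuronal genes, npr-39, npr-44, npr-33 and npr-15 all turned below 0, at -0.26, -0.36, -0.39 and -0.42.

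**Figure D2:**
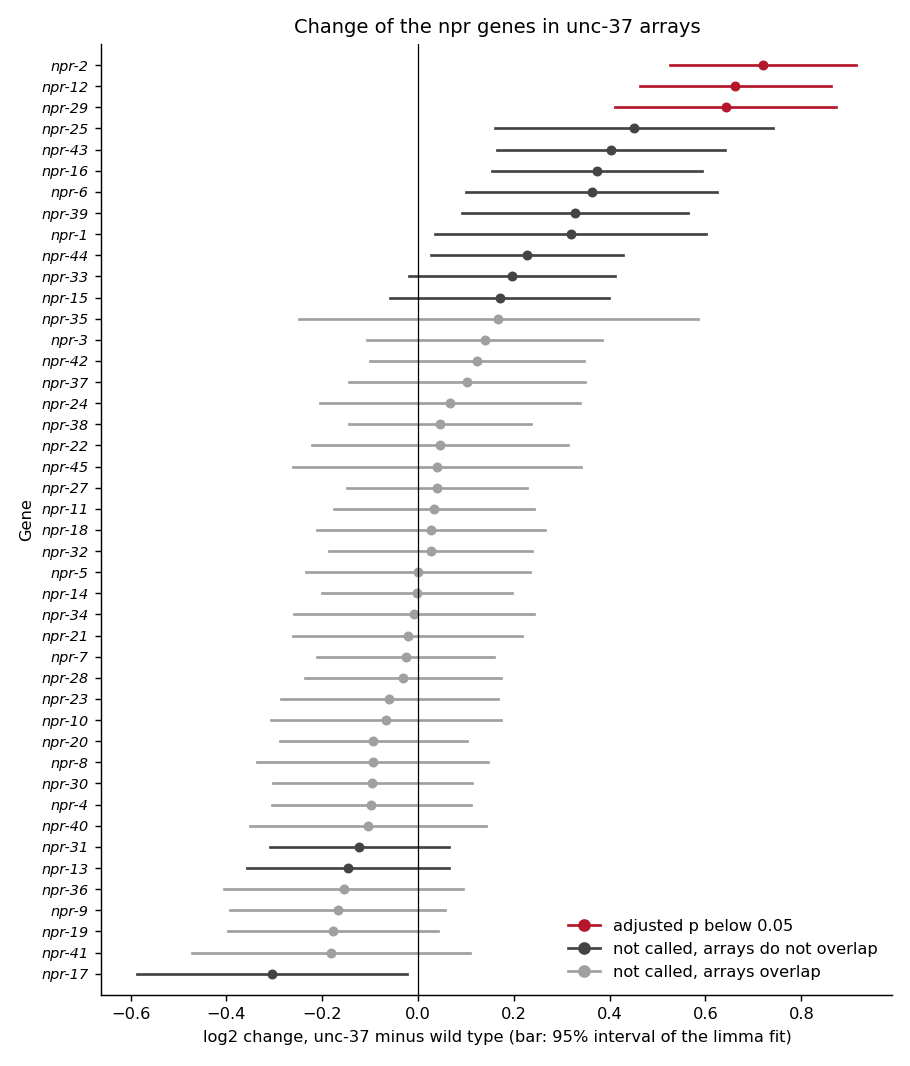
Log2 change, unc-37 minus wild type, of all 44 npr genes at their brightest probe set (points) with the 95% interval of the limma fit (bars), in red for an adjusted p below 0.05, dark grey for uncalled genes whose arrays do not overlap and light grey for the rest. The changes run from -0.30 for npr-17 to 0.72 for npr-2, and 33 intervals include 0.

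No receptor whose peptide is named here was called on the scale of the deposited values. npr-1 (C39E6.6), the receptor of FLP-18 and FLP-21, measured 4.76, 4.54 and 4.82 in wild type and 4.94, 5.24 and 4.89 in unc-37, a log2 change of 0.32 ± 0.12 (adjusted p = 0.189). Its groups do not overlap, but the highest wild-type and lowest mutant arrays are close. npr-4 (C16D6.2), through which FLP-18 acts on reversals and fat storage, measured 5.73, 5.57 and 5.53 in wild type and 5.50, 5.55 and 5.48 in unc-37, a log2 change of -0.10 ± 0.09 (0.609). npr-5 (Y58G8A.4), another FLP-18 receptor, measured 5.76, 5.64 and 5.88 in wild type and 5.85, 5.77 and 5.65 in unc-37. The arrays of npr-4 and npr-5 overlap between the groups, and the change of npr-5 was 0.00 with a 95% interval of -0.23 to 0.23. A dimmer probe set of npr-5 likewise stood at 0.00.

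npr-6 (F41E7.3), a receptor of FLP-1, measured 5.28, 5.59 and 5.34 in wild type and 5.73, 5.89 and 5.66 in unc-37, a log2 change of 0.36 ± 0.11 (adjusted p = 0.111). Every mutant array was above every wild-type one, with wild-type replicate 2 close to the mutant range. npr-3 (C10C6.2), the FLP-15 receptor, was at 0.14 ± 0.11 (0.522) and npr-22 (Y59H11AL.1), the FLP-7 receptor that acts in fat loss, at 0.05 ± 0.12 (0.871). npr-11 (C25G6.5), which receives NLP-1 in an olfactory circuit, was at 0.03 ± 0.09 (0.882). The arrays of npr-3, npr-22 and npr-11 overlapped between groups. With the scaling to pan-neuronal genes, npr-1, npr-6, npr-3, npr-22 and npr-11 turned below 0.

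npr-17 (C06G4.5), a receptor related to opioid receptors that responds to NLP-24, had the lowest change of the family. It measured 5.94, 5.61 and 6.05 in wild type and 5.58, 5.59 and 5.50 in unc-37, a log2 change of -0.30 ± 0.12 (adjusted p = 0.207). The groups are parted only narrowly, since wild-type replicate 2 nearly meets the mutant arrays. A dimmer probe set of npr-17 had a change of -0.16 (0.420) with overlapping arrays. The other 2 genes that lay lower without overlap were npr-13 (ZC412.1), at 6.25, 6.25 and 6.27 in wild type against 6.22, 5.99 and 6.13 in unc-37, and npr-31 (T07F8.2), at 4.30, 4.26 and 4.23 against 4.16, 4.11 and 4.16. Their changes were -0.15 ± 0.09 (0.421) and -0.12 ± 0.08 (0.448), and both intervals include 0.

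The remaining receptors had overlapping arrays. Among them, npr-9 (ZK455.3), related to galanin receptors and known for a role in foraging, was at -0.17 ± 0.10, and npr-19 (C02H7.2), related to cannabinoid receptors, at -0.18 ± 0.10. npr-32 (Y116A8B.5), implicated with npr-19 in axon regeneration, was at 0.03 ± 0.09, and npr-8 (C56G3.1), known for its effect on collagen genes and defence, at -0.09 ± 0.11. None of npr-9, npr-19, npr-32 and npr-8 was called (adjusted p = 0.345 to 0.913). The lowest of the others was npr-41 at -0.18, followed by npr-36 (-0.16), npr-40 (-0.11), npr-30 (-0.10), npr-20 (-0.09), npr-10 (-0.07), npr-23 (-0.06) and npr-28 (-0.03). Closer to 0 lay npr-7 (-0.03), npr-21 (-0.02), npr-34 (-0.01), npr-14 (0.00), npr-18 (0.03), and npr-27 and npr-45 (0.04 each). Above these lay npr-38 (0.05), npr-24 (0.07), npr-37 (0.10), npr-42 (0.12) and npr-35 (0.17). Over the 29 genes with overlapping arrays the changes ran from -0.18 to 0.17, with adjusted p of 0.345 or more. npr-35 had the widest SE, 0.18, and its arrays ran from 3.80 to 4.41 in wild type and from 4.001 to 4.53 in unc-37. On the scale of the deposited values, the 95% interval lay within 1.5-fold of no change in 35 of the 44 npr genes and within 2-fold in all 44. Larger differences than these are outside the intervals of that fit only. With the scaling to pan-neuronal genes every change is lower, npr-17 standing at -0.89, and these bounds do not apply.

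The arrays themselves differed in how often they held an extreme of the family. Of the 44 npr genes, 13 had their lowest value in wild-type replicate 2, and 13 had their highest in unc-37 replicate 2. The same 2 arrays also held extremes at the other end, with 8 highest values in wild-type replicate 2 and 10 lowest in unc-37 replicate 2. The median of the 44 levels ran from 5.60 to 5.73 over the wild-type arrays and from 5.67 to 5.73 over the unc-37 arrays, and these ranges overlap. The array numbers in the labels are 73 to 85 for wild type and 89 to 98 for unc-37, so that, should they give the order of processing, that order and the genotype cannot be told apart.

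Of the 44 npr genes, 29 had a mean level below 6, as did 9543 of the 17118 genes of the array. The mean over 6 arrays was at least 6 on the log2 scale, used here as a filter on dim values, in 15 of the 44, and the 3 called genes were among these; npr-2 passes it through its mutant arrays, its wild-type mean being 5.79. Over all genes with a mean of at least 6, 12.6% were called. Over the 9543 genes with a mean below 6, 198 (2.07%) were called, and 1114 had an unadjusted limma p under 0.05. The 29 npr genes with a mean below 6 gave no limma call, with 4 at an unadjusted p under 0.05. The deposited values do not say which of these dim probe sets measured a transcript above background.

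**Figure D3:**
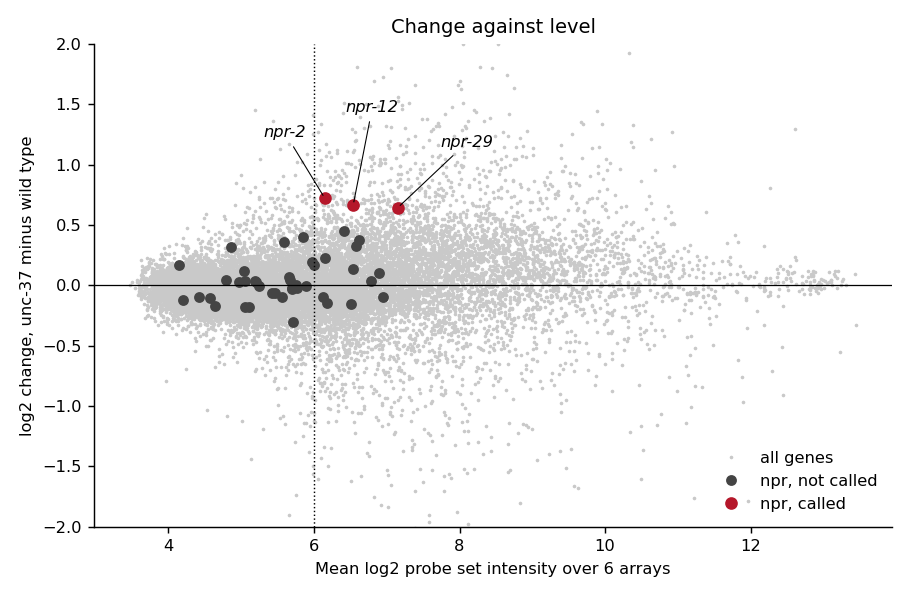
Log2 change, unc-37 minus wild type, against the mean log2 intensity over 6 arrays for all genes (light points) and the npr genes (dark, called ones in red), with a dotted line at a mean of 6. The 3 called npr genes lie to the right of the line, and genes beyond a change of 2 either way are outside the plotted range.

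The peptides reported as ligands of these receptors were examined beside them, with 8 of 9 listed genes measured. Of these, flp-18 rose and none fell. It measured 9.01, 8.92 and 9.17 in wild type and 10.69, 10.14 and 10.27 in unc-37, with no overlap. That is a log2 change of 1.33 ± 0.15 SE (adjusted p = 0.00229). It stayed called with the scaling to pan-neuronal genes, at 0.75 (adjusted p = 8.95e-04). Its receptors npr-1, npr-4 and npr-5 were not called, as given above. flp-4 (0.69, adjusted p = 0.155), flp-7 (0.60, 0.0934) and nlp-1 (0.37, 0.290) lay above 0 without a call. flp-1 (-0.62, 0.0873), flp-15 (-0.34, 0.170), flp-21 (-0.22, 0.227) and nlp-24 (-0.13, 0.569) lay below 0 without one. For the pair of FLP-1 and its receptor, the peptide gene was thus at -0.62 and npr-6 at 0.36, neither of them called. flp-1 was called lower without wild-type replicate 3 (adjusted p = 0.0157), with array weights (0.0384) and with the replicate number as a block in the fit (0.0290). A peptide gene beside flp-18 was called higher without wild-type replicate 1 (flp-4, adjusted p = 0.0166), without unc-37 replicate 3 (flp-7, 0.0193) and with array weights (flp-7, 0.0347). With the scaling to pan-neuronal genes, flp-18 was the 1 peptide gene called higher, and flp-1, flp-15, flp-21 and nlp-24, 4 in all, were called lower. That scaling called 14810 of all 17118 genes lower.

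Other receptors were set beside the npr genes, with no test of a difference between the lists. Of 57 other neuropeptide receptor genes, 11 rose and none fell, with a median change of 0.17. They included dmsr-7, a receptor of FMRFamide-like peptides (1.66 ± 0.18, adjusted p = 0.00223), and ckr-1, related to cholecystokinin receptors (0.99 ± 0.14, 0.00599). By family, the calls were 4 of 14 dmsr genes, 4 of 17 frpr genes, 2 of 2 ckr genes and pdfr-1, and none of 6 gnrr genes was called, 2 of them having an unadjusted p below 0.05. Both dmsr-7 (1.07) and ckr-1 (0.41) stayed called with the scaling to pan-neuronal genes, where 4 of the 57 were called higher and 40 lower. That scaling called 14810 of all 17118 genes lower. Of 16 receptors for amines and acetylcholine, 4 rose and none fell, with a median of 0.15; gar-2, a muscarinic receptor, was at 1.37 ± 0.14 (0.00209) and dop-1, a dopamine receptor, at 0.71 ± 0.13 (0.0159). That count was 2 when either wild-type replicate 1 or 2 was left out and 1 when unc-37 replicate 1 was, and dop-1 was not called without wild-type replicate 2 or unc-37 replicate 1. With the scaling to pan-neuronal genes, 1 of the 16 was called higher and 9 lower; gar-2 stayed called (0.78, adjusted p = 5.35e-04) and dop-1 was not (0.12, 0.386). The count of other neuropeptide receptors was 7 without wild-type replicate 2.

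Downstream and upstream of the receptors, calls were also in the higher direction. Of 23 genes of G protein and arrestin signalling, 4 rose and none fell, with a median of 0.23; the best supported were gpb-2, a G protein beta subunit (0.73 ± 0.08, adjusted p = 0.00260), and acy-1, an adenylyl cyclase (0.70 ± 0.13, 0.0201), whose call was lost on leaving out either of wild-type replicates 1 and 2 or of the mutant replicates 1 and 2 (0.0510 to 0.0851). Of 16 genes of peptide processing and dense core vesicles, 10 were called higher and none lower, with a median of 0.48. Among them were hid-1, which acts in dense core vesicle formation (0.80 ± 0.10, 0.00333), and pghm-1, an enzyme that amidates peptides (0.86 ± 0.10, 0.00336). The 2 processing genes below 0 were not called, though the arrays of both do not overlap between groups, and the lowest change was -1.14. Leaving out an array, the count of processing genes was 4 (wild-type replicate 1), 2 (wild-type replicate 2), 3 (unc-37 replicate 1) and 6 (unc-37 replicate 2), and that of signalling genes was 1 or 2 without wild-type replicate 1 or 2 or any mutant array. With the scaling to pan-neuronal genes, 1 processing gene was called higher and 5 lower, and no signalling gene was called higher and 12 lower. That scaling called 14810 of all 17118 genes lower. With it, gpb-2, acy-1, hid-1 and pghm-1 were not called. The pan-neuronal genes stood at a median of 0.67 in the same arrays, and 4 of the 16 processing genes are on that list too.

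**Figure D4:**
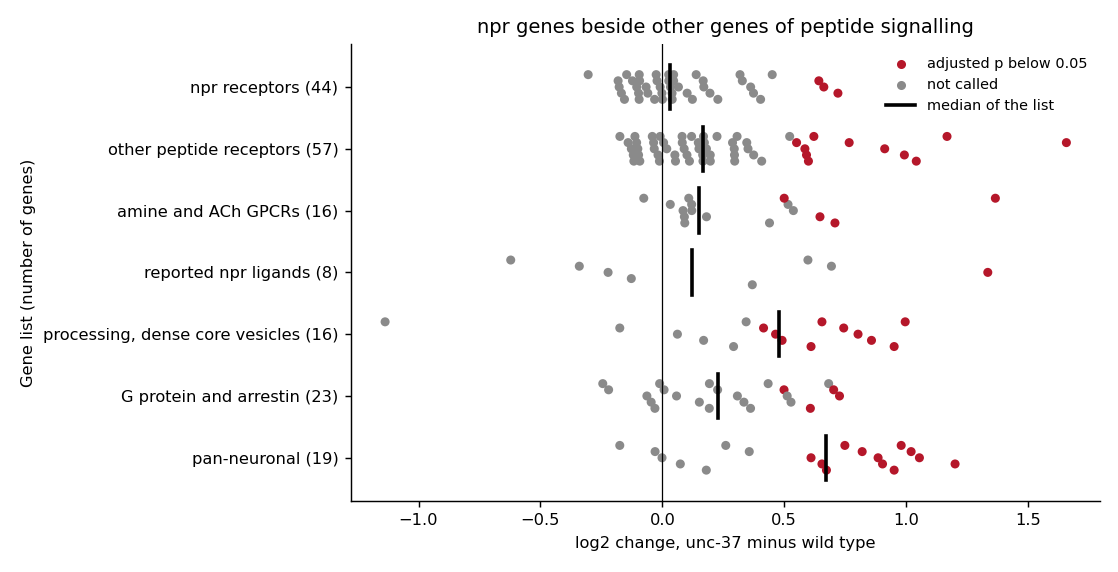
Log2 change, unc-37 minus wild type, of the genes of 7 lists (points, red for an adjusted p below 0.05), with a black bar at each median and the number of genes in brackets. The npr receptors lie around 0 with a median of 0.03, while the medians of the other peptide receptors (0.17), the processing genes (0.48) and the pan-neuronal genes (0.67) lie above 0.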

How the data were processed

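Per the labels' protocols, the RNA went through 2 rounds of amplification by in vitro transcription, which favours 3′ ends, and carried biotin. RMA was run by the authors, per the submitters' processing notes, and the deposited values are its probe set intensities on a linear scale, as their range shows; version, probe set definitions and genome build are not given in the sources here. Values were log2 transformed and not normalized again. Of 22548 probe sets, 20766 name 1 gene in the platform's gene table, 887 several and 895 none. All 44 npr symbols equal those of RefSeq (WBcel235), which served only for names and neighbours.

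Differences (unc-37 minus wild type) were tested two-sided in limma 3.58.1 (R 4.3.3) by lmFit and eBayes, adjusting p over all probe sets by Benjamini-Hochberg. SE and 95% intervals are those of the fit. In simulated data with 22548 probe sets and independent normal noise, 81, 55 and 64 probe sets were given changes of 1.5-fold, 2-fold and 4-fold. Limma recovered 35.8%, 81.8% and 100% of these, with 9 false calls among 147. Far more probe sets, 1447, were called in the real arrays. The adjustment depends on the share that changes, so these rates need not hold for the real arrays. The labels call the arrays biological replicates. The npr genes and all lists were chosen with earlier results of these data known. By rule, every npr gene is named, those with a call, arrays that do not overlap, a change of at least 0.5 or several probe sets with every array's value; values of npr-4 and npr-35 and the genes next to called members were added after they were seen. From each pathway list the 2 called genes of smallest p are named, all listed ligands, and unc-37, unc-4 and pab-1; pdfr-1 and F56B6.6 were named after their values were seen. A planned search of promoters for motifs was not made, as no sequences were used here. The alternatives were a prior trend, array weights, 2 filters on dim probe sets, 3 scalings, a replicate block, leaving out each array, 2 other thresholds and averaging of each gene's probe sets. Figures were drawn with matplotlib 3.10.9.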

Additional observations from a re-analysis of the deposited data

How the results depend on the processing

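The calls of npr-2, npr-12 and npr-29 held under every alternative run except the scaling to 19 pan-neuronal genes. The count of npr genes called higher was 3 without any single array, 6 with array weights, 5 with each array centred on its median, 6 at an adjusted p below 0.1 and 0 with the pan-neuronal scaling, which called 35 lower; no other alternative called an npr gene lower. The median of the npr genes was 0.01 to 0.04 without single arrays, 0.10 and 0.17 with dim probe sets removed at the median level and at 6 (which keeps 23 and 15 of the 44), and -0.56 with the pan-neuronal scaling. Over all genes, 675 higher and 481 lower calls became 1043 and 723 with array weights, 1069 and 794 at an adjusted p below 0.1, 190 and 14810 with the pan-neuronal scaling, and 277 to 811 and 219 to 528 without single arrays. The higher count was lowest without wild-type replicate 2 (277) and next lowest on leaving out unc-37 replicate 1 (303), wild-type replicate 1 (398) or unc-37 replicate 2 (430). Deviations of same-numbered arrays from their group means correlated at -0.19, -0.14 and -0.10, and those of differently numbered arrays at 0.05 to 0.10. The labels do not say whether arrays of the same number were prepared together. These correlations cannot settle it, as each mean is of only 3 arrays. With the replicate block 3 npr genes were called higher and none lower, and 483 and 384 of all genes. The block also ended the call of unc-37 (adjusted p = 0.0588), as did the prior trend (0.0522).

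Among the npr genes and the other genes whose alternatives are given here, those that changed sign had no call in the main fit, apart from unc-37. With the pan-neuronal scaling, which lowers every change alike, they were npr-1 (-0.27), npr-3 (-0.45), npr-5 (-0.59), npr-6 (-0.23), npr-11 (-0.55), npr-15 (-0.42), npr-16 (-0.21), npr-18 (-0.56), npr-22 (-0.54), npr-24 (-0.52), npr-25 (-0.14), npr-27 (-0.55), npr-32 (-0.56), npr-33 (-0.39), npr-35 (-0.42), npr-37 (-0.49), npr-38 (-0.54), npr-39 (-0.26), npr-42 (-0.46), npr-43 (-0.18), npr-44 (-0.36), npr-45 (-0.55), nlp-1 (-0.22), pab-1 (-0.42) and unc-37 (-0.088). All of these except npr-1, npr-6, npr-16, npr-25, npr-39, npr-43, nlp-1 and unc-37 were called lower with that scaling. With a second quantile normalization the genes that changed sign were npr-7 (8.11e-04), npr-14 (0.032), npr-27 (-0.0045) and npr-34 (0.013). With arrays centred on their median they were npr-7 (0.0030), npr-14 (0.026), npr-21 (0.0065) and npr-34 (0.019). npr-45 was at -0.035 with array weights and npr-5 at -5.79e-04 with the mean of its probe sets. Without single arrays the sign changed for npr-5 (-0.061 to 0.063), npr-10 (-0.15 to 0.019), npr-11 (-0.025 to 0.074), npr-14 (-0.046 to 0.038), npr-18 (-0.032 to 0.10), npr-21 (-0.083 to 0.040), npr-22 (-0.070 to 0.13), npr-24 (-0.032 to 0.14), npr-28 (-0.083 to 0.013), npr-32 (-0.033 to 0.079), npr-34 (-0.067 to 0.075) and npr-45 (-0.074 to 0.16). Apart from the pan-neuronal scaling and the median centring, which shift every gene of an array alike, the cause of these moves was not tested.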
